A study of Mus musculus with 5 samples.

Results

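The 6 genes described here store, take up, export or release iron: *Fth1* and *Ftl1* (the heavy and light subunits of ferritin, the iron storage protein), *Tfrc* (the transferrin receptor), *Slc40a1* (ferroportin, the iron exporter), *Hmox1* (heme oxygenase, which frees iron from heme) and *Slc11a1* (a metal transporter of the phagosome membrane). They were chosen by name, and all 6 were found among the 28692 genes of the count tables. Their transcripts were counted by droplet-based single-cell RNA sequencing of bone marrow from 5 young adult C57BL/6J mice, each given 1000 BCR-ABL1+ B-cell acute lymphoblastic leukemia cells by vein without irradiation. One mouse was killed on day 0 and 1 on each of days 3, 6, 9 and 12. The day 0 mouse was killed just after the transplantation, so it had received leukemia cells as well, and no untransplanted mouse was included. Marrow was flushed, the crushed bones were digested with enzymes, red blood cells were lysed and the cells were frozen before capture, so red cells and cells that do not survive these steps are under-represented.

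Iron enters most cells as transferrin bound to the transferrin receptor, is kept in a ferritin shell of heavy and light chains, and leaves through ferroportin. Marrow macrophages that surround erythroblasts engulf nuclei and senescent red cells, open heme with heme oxygenase and return the iron to the plasma through ferroportin. Erythroblasts and dividing progenitors are the main users of transferrin iron. When iron is scarce, iron regulatory proteins bind hairpins called iron-responsive elements: in a 5′ untranslated region (UTR) they block translation, and in the 3′ UTR of *Tfrc* they protect the mRNA. A count of mRNA molecules therefore misses the control of ferritin and ferroportin at translation and includes that of *Tfrc* stability.

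The hairpins are shown because they set the members apart in what an mRNA count can reveal. A search of GENCODE vM21 transcripts (GRCm38) for a C, 5 bases, the loop CAGTGN and 5 bases pairing with the first 5 (G with T allowed) was run on the transcript strand. It found 1 match in the 5′ UTR of *Fth1*, *Ftl1* and *Slc40a1*, 4 in the 3′ UTR of *Tfrc*, and none in the UTRs of *Hmox1* and *Slc11a1*. Each line gives 30 bases 5′ to 3′ with the 6-base loop in capitals:
Fth1 5′ UTR, chr19:9982732-9982761, plus strand: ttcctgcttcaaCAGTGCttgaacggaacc
Ftl1 5′ UTR, chr7:45459778-45459807, minus strand: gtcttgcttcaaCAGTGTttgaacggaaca
Slc40a1 5′ UTR, chr1:45925464-45925493, minus strand: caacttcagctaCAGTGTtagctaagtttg
Tfrc 3′ UTR, chr16:32631219-32631248, plus strand: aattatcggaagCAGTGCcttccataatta
Tfrc 3′ UTR, chr16:32631598-32631627, plus strand: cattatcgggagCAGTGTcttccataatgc
Tfrc 3′ UTR, chr16:32631663-32631692, plus strand: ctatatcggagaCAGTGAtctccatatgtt
Tfrc 3′ UTR, chr16:32631710-32631739, plus strand: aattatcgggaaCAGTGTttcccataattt

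The same pattern was present in the 5′ UTR of 28 of 20873 genes (0.134%) and in the 3′ UTR of 127 of 20981 genes (0.605%). The genes themselves span chr19:9980598-9985098 (*Fth1*), chr7:45457944-45459884 (*Ftl1*), chr16:32608920-32632794 (*Tfrc*), chr1:45908068-45926523 (*Slc40a1*), chr8:75093621-75100589 (*Hmox1*) and chr1:74375195-74386062 (*Slc11a1*). *Ftl1* has near-identical copies: 675 of the 1427 words of 50 bases in its transcripts (47.3%) also occur in the pseudogene *Ftl1-ps1*, which the count table lists as *Gm10116*. Reads of *Ftl1* may therefore have been split between copies, and its level is less certain than that of *Fth1*, which shared 1.59% of its words with its nearest copy.

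The 5 libraries held 33425695 to 43554233 unique molecular identifiers (UMIs, each 1 captured mRNA molecule), and 5474 to 7604 barcodes per library reached the limit of 500 UMIs, 32135 cells in all. Cells were clustered without the 6 genes and other iron genes, and 13 classes were named "-like" from marker genes, leaving 13.9% of cells unnamed. The days 0 and 12 libraries stood apart from those of days 3, 6 and 9: summed dissociation-response genes (*Fos*, *Jun* and others) in monocyte-like cells were 66.7, 31.7, 30.0, 32.0 and 45.7 UMIs per 10000 from the first to the last day. Barcodes found in more than 1 library numbered 574 of 31551. The transplanted leukemia cells cannot be told apart from the host's pro/pre-B-like cells here. Levels below are UMIs of a gene per 10000 UMIs of the summed cells of a class in 1 library. Counting the 3′ end gives 1 UMI per captured molecule whatever the transcript length, so levels of different genes can be set side by side, except that those of *Ftl1*, and ratios to it, may miss reads assigned to its copies.

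Free RNA in the cell suspension adds UMIs to every droplet. Its composition was read from barcodes with at most 100 UMIs, and its amount was set from the neutrophil mRNAs *S100a8* and *S100a9* in B-like cells, which gave 536 to 1055 UMIs of free RNA per cell, or 24.2 to 41.1% of the UMIs of B-like cells. A level was read as expression only where its UMIs were well above what this would give. The same amount was assumed for every cell of a library. The barcodes with at most 100 UMIs averaged 13.7, 12.2, 4.71, 5.86 and 13.9 UMIs on days 0 to 12, far fewer than this amount. The amount may be too high, which was not tested, so a level near or under the expectation does not show that a gene was silent. In lymphoid cells *Hmox1*, *Slc11a1* and *Slc40a1* were at or near the free RNA expectation (in B-like cells, 59, 35 and 71 UMIs observed against 90.6, 45.6 and 89.4 expected). *Slc40a1* in monocyte-like cells (132 UMIs against 99.1), and *Tfrc* in monocyte-like (94 against 77.6) and neutrophil-like cells (220 against 321) were also near it or under it.

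**Figure D1:**
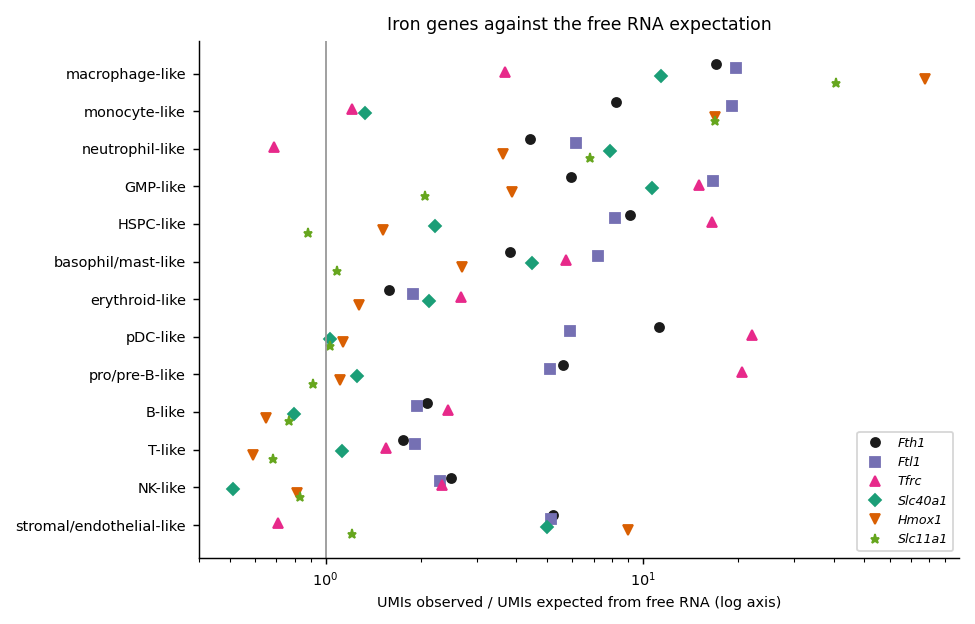
UMIs of each gene observed in a cell class divided by the UMIs expected from free RNA (x axis, log scale), 1 symbol per gene and class. Libraries with at least 10 cells of the class are summed. Points near the line at 1 cannot be told from free RNA. *Hmox1* in macrophage-like cells lies farthest right (77.9 when all libraries are summed), and *Tfrc* reaches 22.2 in pDC-like and 20.5 in pro/pre-B-like cells.

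Ferritin mRNA was present in every class, and among the class values those of macrophage-like cells were the highest for both chains. Finer clusters could exceed them for *Fth1*: at the higher clustering resolution, 470 neutrophil-like cells led by *Irg1*, *Cxcl2* and *Ccl4* measured 207 UMIs per 10000, against 121 in the macrophage-like cluster. At the main resolution of 0.6, the macrophage-like class was 1 cluster of 71 cells led by the complement genes *C1qb*, *C1qa* and *C1qc*. These cells numbered 5, 17, 28, 21 and 0 from day 0 to day 12. Only the libraries of days 3, 6 and 9 reached the minimum of 10 cells for a class value, so macrophage-like values rest on 66 cells. On day 12 none were found among 5871 cells, which allows a share of up to 0.0511%. The class was not a pure picture of iron-recycling macrophages: *C1qa* had a UMI in 63.4% of its cells but the erythroblast island markers *Vcam1* and *Cd5l* in 29.6% and 8.45%, and the antigen presentation genes *H2-Eb1* and *H2-Aa* were among its leading genes. Its summed macrophage markers were 63.6 to 94.0 per 10000 against 4.28 to 8.98 in monocyte-like cells, all 10 of 10 detected. Its conventional dendritic cell markers, 8 of 8 detected, were 91.3 to 173 against 0.902 to 2.80, and its neutrophil markers ranged from 303 to 1119. The part that these other cell types play in the member levels was not tested. Erythroid markers were nearly absent, with 9 of 10 at 0.

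*Fth1*, whose protein oxidizes iron as it enters the ferritin shell, measured 129, 123 and 106 UMIs per 10000 in macrophage-like cells on days 3, 6 and 9. Plasmacytoid dendritic cell-like (pDC-like) cells came next at 71.1, 67.2, 68.0, 61.6 and 47.1 on days 0 to 12, then neutrophil-like cells at 36.2, 33.1, 33.3, 31.1 and 33.5 and monocyte-like cells at 39.0, 30.0, 28.2, 26.3 and 28.0. The macrophage-like and pDC-like ranges did not overlap with each other or with the next class, whereas neutrophil-like, monocyte-like and B-like ranges overlapped. The lowest median was in granulocyte-monocyte progenitor-like (GMP-like) cells, at 12.1, 11.6, 12.6, 11.8 and 9.89. *Fth1* in neutrophil-like cells, 46.3% of all cells, made up 44.1% of the gene's 398021 UMIs.

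*Ftl1*, the chain that helps the iron core form, followed another order. It measured 127, 120 and 104 per 10000 in macrophage-like cells, and monocyte-like cells came second, at 60.3, 54.6, 55.6, 48.7 and 42.7 on days 0 to 12. Neutrophil-like cells followed at 34.4, 37.6, 41.4, 36.2 and 24.7, and their range overlapped that of pDC-like cells, which measured 30.5, 28.1, 29.3, 26.3 and 15.8. Pro/pre-B-like cells had the lowest median, 12.1. From neutrophil-like cells down, the range of each class overlapped that of the next.

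The balance of the chains, as counted, differed between classes. There were 2.34 *Fth1* UMIs per *Ftl1* UMI in pDC-like cells (median of 5 libraries, range 2.32 to 2.98), 1.02 in macrophage-like cells (1.02 to 1.02 over 3 libraries), 0.881 in neutrophil-like cells (0.805 to 1.36), 0.550 in monocyte-like cells (0.507 to 0.656) and 0.497 in GMP-like cells (0.411 to 0.604). The pDC-like range lay above, and did not overlap, the ranges of the other 12 classes. Both chains together took 2.1 to 2.55% of all UMIs in macrophage-like cells, against 0.707 to 0.993% in monocyte-like and 0.629 to 1.02% in pDC-like cells.

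**Figure D2:**
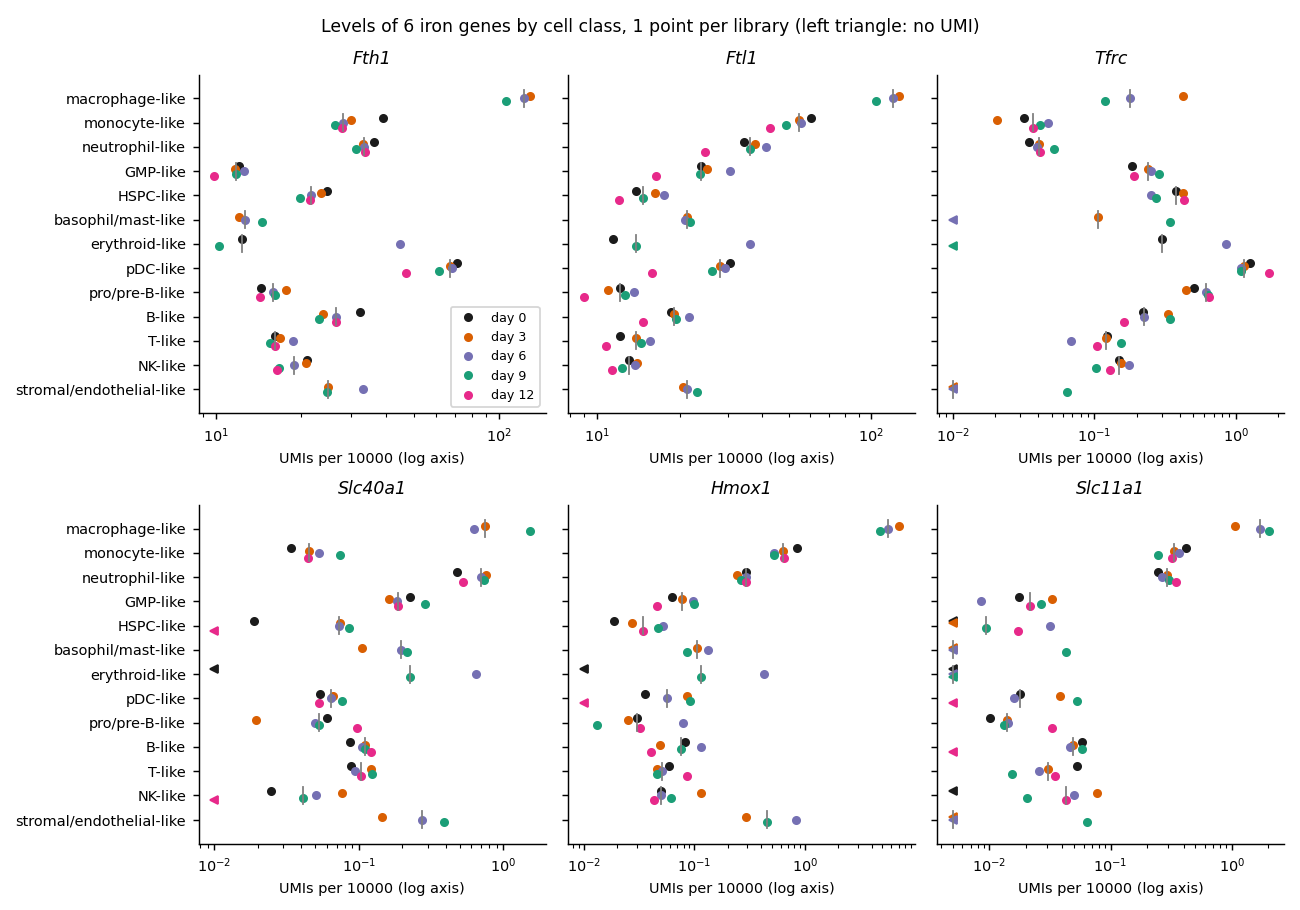
Level of each gene (UMIs per 10000, log axis) in 13 cell classes, 1 point per library with at least 10 cells of the class, left triangles marking libraries without a UMI. Macrophage-like cells hold the highest points for *Fth1*, *Ftl1*, *Hmox1* and *Slc11a1*. For *Slc40a1* they share the top with neutrophil-like cells, and for *Tfrc* the top class is pDC-like.

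*Hmox1*, the heme-degrading enzyme, was counted 67, 63 and 40 times in macrophage-like cells on days 3, 6 and 9, or 7.12, 5.62 and 4.73 UMIs per 10000. Monocyte-like cells measured 0.839, 0.626, 0.523, 0.524 and 0.638 on days 0 to 12, and neutrophil-like cells 0.295, 0.242, 0.291, 0.262 and 0.294. All 3 macrophage-like values lay above every value of every other class. However, 1 cell held 55 of the 67 UMIs on day 3, and without it the day 3 level was 1.54, still above all monocyte-like values. The gene was found in 35.3, 50 and 38.1% of macrophage-like cells on days 3, 6 and 9 and, with every cell thinned to 1000 UMIs (15, 22 and 16 cells deep enough), in 26.7, 36.4 and 18.8%. In monocyte-like cells thinned shares ran from 5.18 to 7.44%, and in B-like cells from 0 to 0.946%, where B-like cells (median 1529 to 1860 UMIs) stand for the free RNA background. Because monocyte-like cells were far more numerous, they held 40.6% of the 4009 *Hmox1* UMIs.

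*Slc11a1* (Nramp1), which pumps divalent metals out of the phagosome, measured 1.06, 1.69 and 2.01 UMIs per 10000 in macrophage-like cells on days 3, 6 and 9. Monocyte-like cells measured 0.422, 0.331, 0.363, 0.246 and 0.320 and neutrophil-like cells 0.244, 0.293, 0.263, 0.301 and 0.344, and these ranges overlapped. The macrophage-like values, from 10, 19 and 17 UMIs, did not overlap with either. Neutrophil-like cells did not overlap with the next class, B-like cells, where the gene was at the free RNA level. GMP-like cells had 37 UMIs against 18.0 expected from free RNA.

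*Slc40a1*, the only known iron exporter of mammalian cells, was mostly a granulocyte transcript in these marrows. Neutrophil-like cells held 3366 of its 5172 UMIs (65.1%), against 427 expected from free RNA, and measured 0.479, 0.758, 0.705, 0.730 and 0.525 UMIs per 10000 on days 0 to 12. Macrophage-like cells measured 0.744, 0.624 and 1.54 on days 3, 6 and 9, from 7, 7 and 13 UMIs. The ranges of both classes overlapped. Of the 13 UMIs on day 9, 10 came from 1 cell, and without it that level was 0.394, below all neutrophil-like values. With free RNA subtracted, the class with the highest median was neutrophil-like, not macrophage-like.

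By share of cells, *Slc40a1* was found in 15.2, 23.8, 20.9, 20.8 and 15.3% of neutrophil-like cells (median 2760 to 3282 UMIs per cell), against 1.94 to 4.89% of monocyte-like cells, which were deeper (5597 to 7632). Thinned to 1000 UMIs per cell, the neutrophil-like shares were 6.15, 9.19, 8.23, 7.96 and 5.24% and the B-like shares 0.336 to 1.06%. Of 66 macrophage-like cells, 28 had an *Hmox1* UMI, 11 an *Slc40a1* UMI and 9 both. Chosen after their values were seen, those 9 cells held *Spic* (the transcription factor of red pulp macrophages) in 5 of 9 against 5 of the 57 others, *Mertk* in 4 against 3, *Vcam1* in 5 against 16 and *Cd5l* in 3 against 3. *C1qa* was found in 8 against 34 and *Axl* in 6 against 36, a similar share of both groups for *Axl*. By their choice the 9 cells held 24 of the 27 *Slc40a1* UMIs (5.21 per 10000), and the 57 others held 3 (0.123). Free RNA would give 2.42 UMIs over the 71 cells of the class. Their median depth was 1412 UMIs against 3045 in the others, and 1 of the 9 was scored as a doublet.

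*Tfrc*, the receptor that brings in transferrin iron, followed another order across the classes. Its highest level was in pDC-like cells, at 1.26, 1.14, 1.08, 1.08 and 1.70 UMIs per 10000 on days 0 to 12, followed by pro/pre-B-like cells at 0.502, 0.446, 0.611, 0.638 and 0.651. At the higher clustering resolution, 124 pro/pre-B-like cells formed a cluster with *Cdkn2a* and *Tmem119* among its leading genes, and 123 of them came from day 3. Their median depth was 20052.5 UMIs, against 4670 in the other pro/pre-B-like cluster, so they weigh heavily in the day 3 value. *Tfrc* measured 0.404 in this cluster and 0.594 in the other. Hematopoietic stem and progenitor-like (HSPC-like) cells measured 0.375, 0.423, 0.252, 0.273 and 0.427, and GMP-like cells 0.184, 0.237, 0.250, 0.288 and 0.191. The pDC-like and pro/pre-B-like ranges did not overlap with each other or with HSPC-like cells, while HSPC-like, erythroid-like, GMP-like and B-like ranges overlapped in turn. In mature myeloid cells the gene was at or near the free RNA level, with 0.0205 to 0.0468 in monocyte-like and 0.0344 to 0.0519 in neutrophil-like cells. *Tfrc* was found in 35.6, 35.1, 35.9, 31.3 and 48.6% of pDC-like cells, and in neutrophil-like cells in 1.20 to 1.73%. On thinned cells the pDC-like shares were 9.26, 9.73, 9.57, 8.56 and 18.2%.

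Erythroid cells, the best known users of this receptor, were few after red cell lysis, at 15, 5, 15, 44 and 0 on days 0 to 12. Their summed hemoglobin transcripts reached 5131 to 7842 UMIs per 10000, so the other genes were read from the remainder. *Tfrc* had 1, 16, 4 and 0 UMIs on days 0, 3, 6 and 9, and the 16 UMIs of day 3 (12.1 per 10000, exact 95% interval 6.94 to 19.7, counting error only) came from 3 of only 5 cells. That library was under the 10-cell minimum and entered no comparison.

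Along the granulocyte line the members moved apart. Clusters were ordered from progenitors led by *Elane*, through precursors led by *Fcnb* and cell-cycle genes, to neutrophil-like clusters led by *Ltf*, *Retnlg* and *Il1b*. All clusters come from the same 5 libraries, so the values are a description without a test. *Fth1* had medians over the 5 libraries of 10.1 in *Elane*-led GMP-like cells, 8.43 in *Fcnb*-led precursors, 17.7 in *Ltf*-led, 43.8 in *Retnlg*-led and 87.9 in *Il1b*-led cells, and the ranges of the last 3 did not overlap (16.1 to 20.8, 41.4 to 44.5 and 76.7 to 104). *Ftl1* ran 19.0, 13.4, 21.8, 54.9 and 83.9 in the same order.

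*Slc40a1* was already present in the progenitors. Its medians were 0.259 in *Elane*-led and 0.330 in *Fcnb*-led GMP-like cells, 0.447 in the *Fcnb*-led precursors, and 0.526, 0.885 and 1.13 in *Ltf*-led, *Retnlg*-led and *Il1b*-led cells. The *Ctsg*-led GMP-like cluster met 4 of the GMP markers used for naming, against 6 in the *Elane*-led and 5 in the *Fcnb*-led cluster. Its *Slc40a1* median was 0.0544 (range 0 to 0.0645), below every value of the other GMP-like clusters, of which the lowest was 0.131. Only *Tfrc* was lower in the 3 neutrophil-like clusters than before them: 0.304 in *Elane*-led GMP-like cells (range 0.251 to 0.379), 0.105 in the *Fcnb*-led precursors (0.0858 to 0.139), and 0.0383, 0.0401 and 0.0427 in the 3 clusters. In the neutrophil-like class it was under the free RNA expectation, so no order among these 3 can be read. *Hmox1* ran 0.126, 0.436 and 0.679 and *Slc11a1* 0.170, 0.471 and 0.598 over those 3 clusters. The *Il1b*-led cluster thus had the highest level of 5 of the 6 genes among these clusters. Dissociation-response genes and NRF2 targets ran in the same order: on day 0 their summed levels were 19.5, 42.2 and 75.4 and 3.33, 9.71 and 16.3 in *Ltf*-led, *Retnlg*-led and *Il1b*-led cells. Their part in the member levels was not tested, and the order is one of clusters, not a measured course of differentiation.

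**Figure D3:**
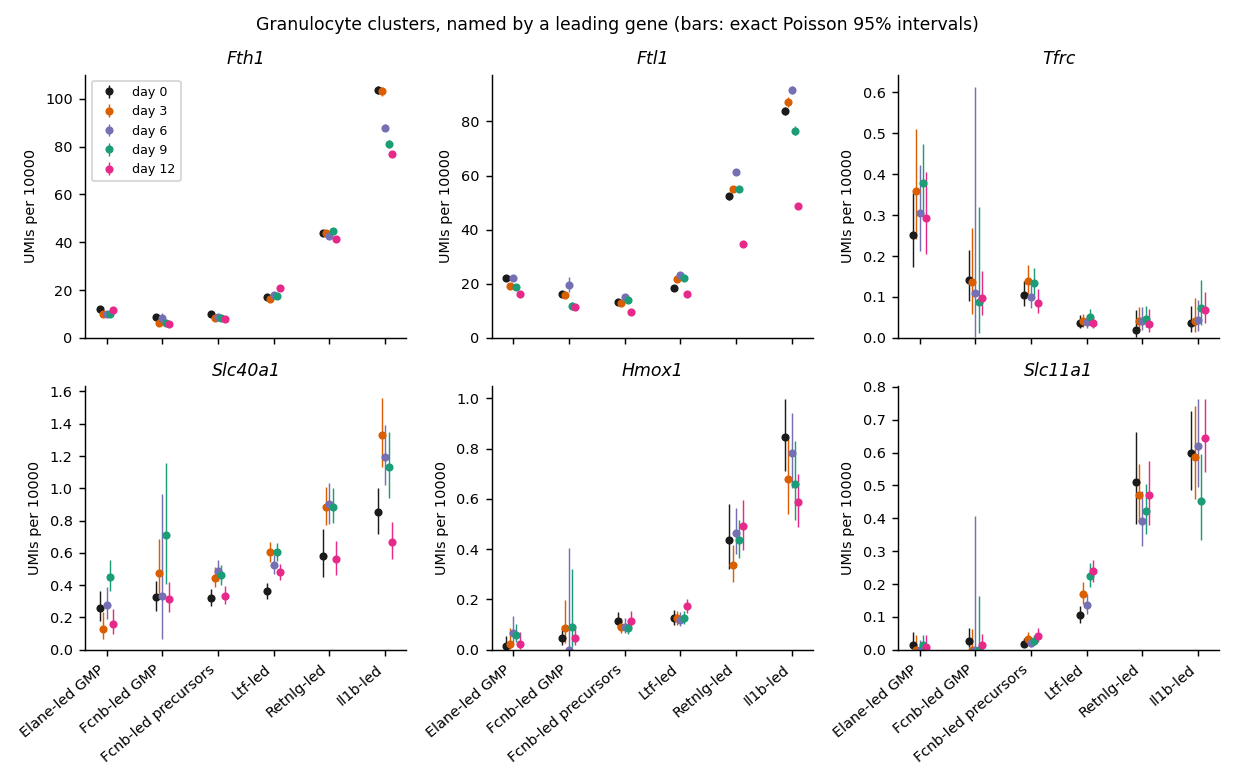
Levels (UMIs per 10000, linear axes from 0) of the 6 genes in granulocyte clusters named by a leading gene, 1 point per library coloured by day, bars exact Poisson 95% intervals (counting error only). *Fth1*, *Ftl1*, *Slc40a1*, *Hmox1* and *Slc11a1* are highest at the *Il1b*-led end, with *Fth1* at 76.7 to 104, and *Tfrc* is highest at the *Elane*-led end.

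Monocyte-like cells also held clusters of unequal ferritin. The cluster led by *Cd83*, *Cd14* and *Tnip3* (259 cells) measured 90.8 to 116 for *Fth1*, and the cluster led by *C1galt1c1*, *Kpna2* and *F13a1* (569 cells) 15.3 to 18.9. For *Ftl1* the same clusters measured 56.4 to 68.5 and 33.8 to 45.4. The *Fth1* range of the first cluster overlapped that of macrophage-like cells.

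Differences between classes were tested on sums of UMIs per class and library with edgeR's quasi-likelihood test, the library as a block and Benjamini-Hochberg adjustment over 10886 genes. A gene passed at an adjusted p below 0.05. Values are log2 fold changes (logFC) ± SE after scaling by trimmed means (TMM), and where scaling by total UMIs altered a call, that value stands beside it. Classes of a library share its mouse and its day, and the 5 mice differ in day, so the spread is that of mice over the course of disease.

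All 6 members were higher in macrophage-like than in monocyte-like cells, where 13.1% of all genes passed, 4.24% higher and 8.86% lower. *Slc40a1* and *Hmox1* differed most, with logFC 3.92 ± 0.41 for *Slc40a1* (adjusted p 7.1e-12) and 3.10 ± 0.19 for *Hmox1* (adjusted p 1.1e-22), an 8.60-fold difference. The fold of *Slc40a1* is against a monocyte-like level near that of free RNA, and 24 of its 27 macrophage-like UMIs came from 9 of 66 cells. For *Hmox1*, 1 cell gave 55 of the 170 macrophage-like UMIs. *Slc11a1* followed at 2.13 ± 0.30, *Fth1* at 1.79 ± 0.15 and *Ftl1* at 0.86 ± 0.14. For *Tfrc* the logFC of 2.53 ± 0.73 (adjusted p 0.0111) rested on 7 UMIs in macrophage-like cells, of which day 3 gave 4. Without the day 3 library it was 1.73 with an adjusted p of 0.405, and it no longer passed in 4 other alternatives. All 6 were also higher when sums were scaled by totals.

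GMP-like against monocyte-like cells divided the members, where 56.4% of all genes passed, 28.8% higher and 27.6% lower. *Tfrc* was higher in GMP-like cells (2.82 ± 0.18, adjusted p 3.9e-22), as was *Slc40a1* (2.25 ± 0.17). The other 4 members were lower: *Slc11a1* by -3.71 ± 0.21, *Hmox1* by -2.85 ± 0.16, *Fth1* by -1.20 ± 0.13 and *Ftl1* by -0.97 ± 0.12. All 6 calls and directions held when scaled by totals, although the share of higher genes among those called went from 51.1% to 37.1%.

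GMP-like against neutrophil-like cells gave 1 member higher and 5 lower, among 77.5% of all genes that passed, 37.9% higher and 39.6% lower. *Tfrc* was higher in GMP-like cells by 1.32 ± 0.16. *Slc11a1* was lower by -4.81 ± 0.20, *Hmox1* by -2.99 ± 0.16, *Slc40a1* by -2.72 ± 0.13, *Fth1* by -2.67 ± 0.14 and *Ftl1* by -1.68 ± 0.12. With most genes past the test, only direction and size carry information. Scaling by totals shifted all genes by 1.13 on the log2 scale (79.7% of called genes then higher, against 48.9%) and kept the 6 directions and calls, with *Ftl1* closest to 0 at -0.55.

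Monocyte-like against neutrophil-like cells depended on the scaling more than the other comparisons. By TMM, 74.6% of all genes passed, 37.7% higher and 36.9% lower, and 5 members were lower in monocyte-like cells: *Slc40a1* by -4.97 ± 0.15, *Tfrc* by -1.50 ± 0.20, *Fth1* by -1.47 ± 0.13, *Slc11a1* by -1.10 ± 0.13 and *Ftl1* by -0.72 ± 0.12. The *Tfrc* value compares 2 levels at or near free RNA and cannot be read as a difference in expression. *Hmox1* was at -0.15 ± 0.12 (adjusted p 0.253). Scaled by totals, *Slc40a1* was still lower (-3.66 ± 0.15), *Ftl1* was higher (0.60 ± 0.13) and *Hmox1* was higher (1.18 ± 0.12), while *Fth1* (-0.15), *Tfrc* (-0.20) and *Slc11a1* (0.22) did not pass. The shift of all genes was 1.31, and 87.8% of called genes were higher by totals against 50.5% by TMM. The 10 neutrophil marker genes alone made up 4838 to 5290 of every 10000 UMIs in neutrophil-like cells. Of the members, only *Slc40a1* was lower in monocyte-like cells under both scalings.

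Pro/pre-B-like against B-like cells, where 52.9% of genes passed, 22.9% higher and 30.0% lower, gave *Tfrc* higher (0.86 ± 0.17, adjusted p 2.1e-05) and both ferritin chains lower (*Fth1* -0.92 ± 0.14, *Ftl1* -0.86 ± 0.12). *Slc40a1*, *Hmox1* and *Slc11a1* also passed as lower, but their UMIs in pro/pre-B-like cells (31, 26 and 11, against 24.7, 23.4 and 12.0 expected from free RNA) were near that expectation, as they were in B-like cells. The part of free RNA in these calls was not tested, nor was that of the pro/pre-B-like cluster found almost only on day 3. Erythroid-like against GMP-like cells (9.84% of genes passed, 1.42% higher and 8.41% lower) gave only *Fth1* higher, by 1.26 ± 0.18 (adjusted p 7.2e-08). *Ftl1* was at 0.11 ± 0.16 and *Tfrc* at 0.94 ± 0.74, neither past the test. On the scale of the class levels, *Fth1* measured 12.3, 44.6 and 10.2 in erythroid-like cells on days 0, 6 and 9. These rest on 41, 208 and 90 UMIs. Only the day 6 value lay above the GMP-like range of 9.89 to 12.6. The day 6 cells also had the lowest hemoglobin level, 5131 against 7842 on day 0 and 7662 on day 9. In that comparison the fit of the 2 classes alone left no member past the test, with *Fth1* at an adjusted p of 0.300. With DESeq2, 5 members passed as higher, among them *Ftl1* at 1.27 (adjusted p 1.4e-25), *Tfrc* at 2.06 (0.0188), *Hmox1* at 2.84 (0.0157) and *Slc40a1* at 2.04 (0.0279), so which members passed depended on the tool.

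**Figure D4:**
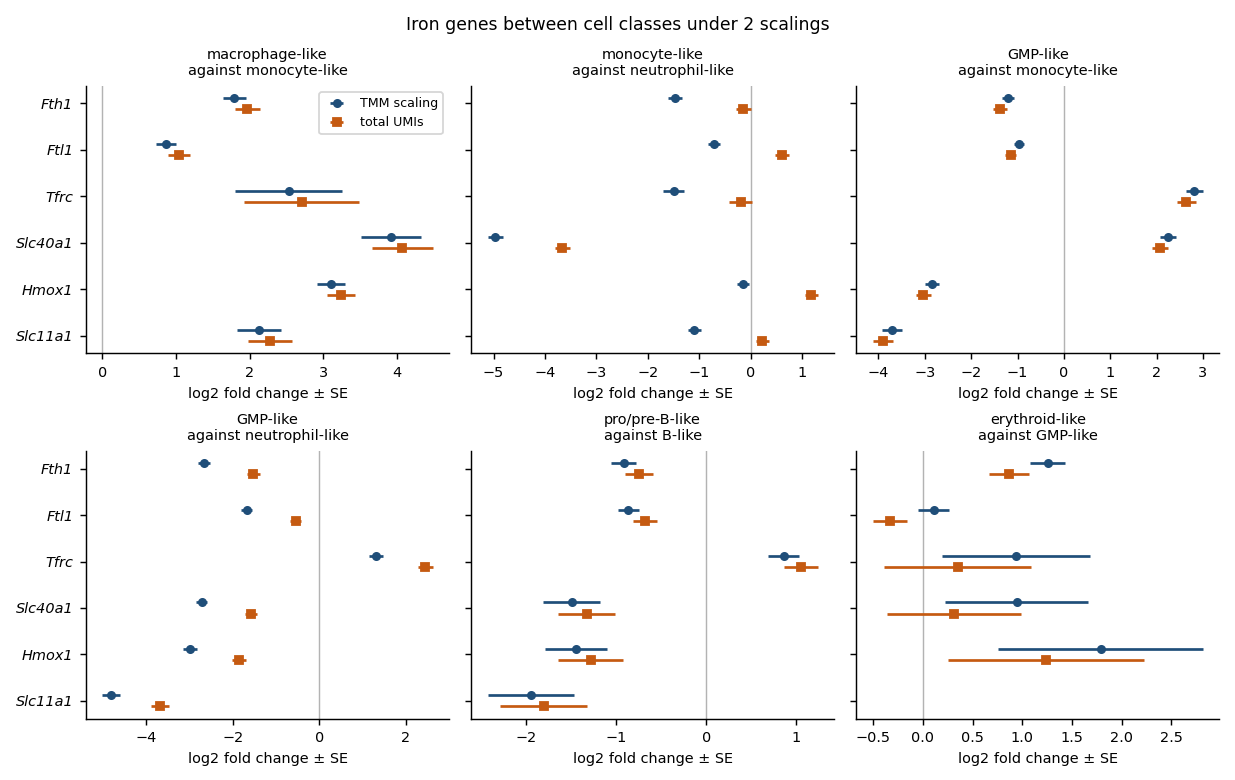
Log2 fold change ± SE of each gene in 6 comparisons between classes, circles for TMM scaling and squares for scaling by total UMIs. The 2 symbols lie close together for macrophage-like against monocyte-like cells and about 1.31 apart for monocyte-like against neutrophil-like cells, where *Ftl1*, *Hmox1* and *Slc11a1* change sign. No symbol is drawn for *Slc11a1* in erythroid-like against GMP-like cells, because the gene had no UMI in erythroid-like cells.

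A list of 48 other iron genes, 46 of them in the table and 40 tested, was read in the same comparisons, each count beside the share of all genes called in that direction, and a share of the list near that share sets it apart in nothing. Against monocyte-like cells, macrophage-like cells had 5 higher and 3 lower (4.24 and 8.86% of all genes, median logFC 0.09 against -0.41 over all genes). Those higher were *Trf* (transferrin, 0.82 ± 0.28), *Blvrb* (biliverdin reductase B, which acts after heme oxygenase, 1.38 ± 0.31), *Spic*, *Hfe* and *Lcn2* (lipocalin 2, a binder of bacterial siderophores, 1.01 ± 0.31). *Hp* (haptoglobin, which binds free hemoglobin) was lower by -1.95 ± 0.25, with *Pcbp2* and *Cpox*. The heme handling genes thus did not move together: 2 of 10 were higher, 1 lower and 7 did not pass. By totals the list had 6 higher and 1 lower.

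Between GMP-like and monocyte-like cells 13 of the 40 were higher and 13 lower (28.8 and 27.6% of all genes, median -0.21 against 0.02), and by totals 12 and 16. *Alas1*, the first enzyme of heme synthesis, was higher by 2.41 ± 0.12. Of 9 heme synthesis genes 3 were higher and none lower, and by totals 3 were higher and 1 lower, a share of higher genes near that of all genes. The 3 iron sensing genes *Aco1*, *Ireb2* and *Fbxl5* were all lower in GMP-like cells. Between GMP-like and neutrophil-like cells 17 were higher and 15 lower (37.9 and 39.6% of all genes, 25 and 7 by totals), with the granule proteins *Ltf* (lactoferrin, -3.76 ± 0.32) and *Lcn2* (-3.60 ± 0.27) lower. Between monocyte-like and neutrophil-like cells 19 were higher and 13 lower (37.7 and 36.9% of all genes, 30 and 8 by totals), again with *Ltf* at -5.07 ± 0.34 and *Lcn2* at -5.06 ± 0.29.

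In pro/pre-B-like against B-like cells 10 were higher and 8 lower (22.9 and 30.0% of all genes, 12 and 6 by totals), and *Ltf* and *Lcn2* were among the lower ones although neither is a B-cell gene. Erythroid-like against GMP-like cells gave 10 higher and 3 lower (1.42 and 8.41% of all genes, 9 and 4 by totals), and 8 of the 9 heme synthesis genes were higher (7 by totals, with 1 lower). *Alas2*, the erythroid form of the first enzyme, was at 13.07 ± 0.57, *Fech* (which inserts iron into heme) at 4.89 ± 0.41 and *Slc25a37* (mitoferrin 1, which carries iron into mitochondria) at 4.16 ± 0.35.

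Each day was a single mouse, so days could be compared only by the ratio of 2 levels, with a 95% interval that covers counting error and not the difference between mice. All later days share the day 0 mouse. A ratio counted as past the limit beyond 1.5-fold in either direction, among genes with at least 50 UMIs over both libraries. The macrophage-like class, with 5 cells on day 0 and none on day 12, was not compared.

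In monocyte-like cells the genes past 1.5-fold were 12.6, 12.5, 13.9 and 10.5% of those measured on days 3, 6, 9 and 12. *Hmox1* was below its day 0 level on each later day, with ratios of 0.746, 0.623, 0.625 and 0.761, the middle pair past the limit. *Slc11a1* had 0.784, 0.861, 0.583 and 0.760, with day 9 past it. Over the members 5 ratios were past the limit, but 1 on thinned cells and 2 by the mean over cells, and both *Hmox1* ratios were inside it there. *Fth1* had 0.770, 0.724, 0.676 and 0.718, and *Ftl1* 0.905, 0.923, 0.808 and 0.708, all inside the limit. The summed dissociation-response genes were also highest on day 0, and their part in these ratios was not tested. The mix of clusters differed as well: the cluster led by *Atf3*, *Ccl2* and *S100a4*, with 0.948 UMIs of *Hmox1* per 10000 over all days, held 370, 31, 12, 16 and 238 of the 878, 590, 721, 756 and 628 monocyte-like cells from day 0 to day 12. Within the other large clusters, of 743 and 681 cells, *Hmox1* measured 1.28, 0.898, 0.769, 0.798 and 0.755 in the first and 0.569, 0.592, 0.592, 0.677 and 0.579 in the other, so the day 0 value was not the highest in each, and the part of the mix was not tested. *Slc40a1*, from 18, 33 and 41 UMIs on days 0, 6 and 9, had ratios of 1.57 and 2.17, at levels near free RNA, and with free RNA subtracted the day 6 value changed direction.

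In neutrophil-like cells 11.2, 14.9, 18.2 and 10.2% of genes were past the limit on days 3, 6, 9 and 12. *Slc40a1* was counted 431, 767, 700, 816 and 652 times on days 0 to 12, and its ratios were 1.58 (1.41 to 1.79), 1.47 (1.31 to 1.66), 1.53 (1.36 to 1.72) and 1.10 (0.969 to 1.24), with days 3 and 9 past the limit. The mix of clusters differed too, the *Il1b*-led share being 33.4, 19.6, 22.8, 15.5 and 25.2%. Within clusters the day 3, 6 and 9 ratios were 1.67, 1.45 and 1.66 in *Ltf*-led, 1.52, 1.54 and 1.52 in *Retnlg*-led and 1.57, 1.40 and 1.33 in *Il1b*-led cells. These ratios share the day 0 mouse, and the part of the mix was not tested. With sums scaled by TMM no member ratio was past the limit in these cells. *Tfrc* had a ratio of 1.51 on day 9 from 31 and 58 UMIs, at or under free RNA.

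*Slc11a1* in neutrophil-like cells had ratios of 1.20, 1.08, 1.23 and 1.41, inside the limit. In the *Ltf*-led cluster alone they were 1.62, 1.30, 2.14 and 2.27, and in the *Retnlg*-led and *Il1b*-led clusters they ran from 0.756 to 1.08. *Fth1* in the *Il1b*-led cluster had 0.996, 0.848, 0.784 and 0.741. *Ftl1* was at 0.717 on day 12 in all neutrophil-like cells and at 0.583 in the *Il1b*-led cluster. Summed transcripts of 6 targets of the oxidative stress factor NRF2, which also drives *Hmox1* and ferritin, were 6.47, 3.84, 4.53, 3.53 and 6.04 per 10000 in neutrophil-like cells, highest on days 0 and 12.

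In GMP-like cells 22.8, 27.6, 26.8 and 9.01% of genes were past the limit on days 3, 6, 9 and 12. *Tfrc* had ratios of 1.29, 1.36, 1.56 and 1.03, from 73, 65, 59, 118 and 70 UMIs on days 0 to 12, with day 9 past the limit (interval 1.16 to 2.12). *Hmox1* was past it on day 9 at 1.59 (0.942 to 2.72), an interval that includes no difference. The mix of clusters differed here too, the *Fcnb*-led cluster holding 168, 57, 11, 34 and 166 of the 328, 178, 158, 306 and 306 cells. Within the *Ctsg*-led cluster *Hmox1* was at 0.145 on days 0 and 9, and *Tfrc* was at 0.163 and 0.215 there and at 0.251 and 0.379 in the *Elane*-led cluster. *Slc40a1* had 0.707, 0.802, 1.27 and 0.815, and *Fth1* and *Ftl1* stayed between 0.683 and 1.28. With so many genes past the limit on days 3, 6 and 9, these ratios do not set the members apart.

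**Figure D5:**
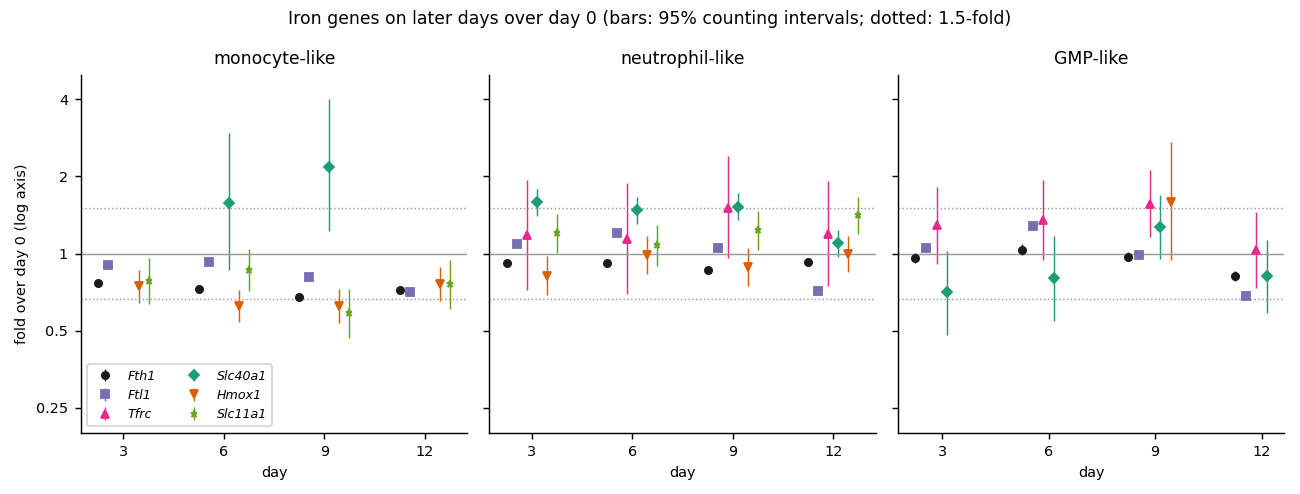
Ratio of each gene's level on days 3, 6, 9 and 12 to that on day 0 (y axis, log scale) in 3 panels (monocyte-like, then neutrophil-like, then GMP-like cells), bars 95% counting intervals, dotted lines 1.5-fold. *Slc40a1* in neutrophil-like cells is at 1.47 to 1.58 on days 3, 6 and 9 and 1.10 on day 12, and *Hmox1* in monocyte-like cells is at 0.623 to 0.761.

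Across the 13 classes, 4565 genes were ranked by how closely their log2 levels followed those of each member (Pearson's r over class means, the classes sharing libraries, depth and free RNA, so given without a test). *Hmox1* was closest to *Bcl2a1a* (0.95), *Sirpb1a* (0.93) and *Axl* (0.93), and *Slc11a1* to *Ptgs2* (0.98), *Clec4n* (0.97) and *Nlrp3* (0.97). *Fth1* was closest to *Gpr137b* (0.94), *Slc15a3* (0.89) and *Pltp* (0.89), *Ftl1* to its own copy *Gm10116* (0.99), *Ear2* (0.95) and *AF251705* (0.95), and *Slc40a1* to *Pilrb2* (0.88), *Fcgr4* (0.86) and *Il1rn* (0.83). *Tfrc* was closest to *Haus3* (0.88), *N4bp3* (0.80) and *Blnk* (0.80). Among the members, *Ftl1*, *Hmox1* and *Slc11a1* followed each other at 0.90 to 0.91, while *Tfrc* with the other 5 ran from -0.35 to 0.18.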

How the data were processed

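The authors processed the 10x 3′ libraries with Cell Ranger against mm10 and deposited, for each mouse, a matrix of UMI counts over every barcode of the platform, with no cell filter and no normalization. Barcodes with at least 500 UMIs were kept. Variable genes (1006, none of them a member) were reduced to 20 principal components, clustered with scanpy 1.11.5 (Leiden, resolution 0.6, with 20 neighbours) and named from fixed marker lists by cluster. The way clusters were split a second time was settled after the data were seen. Doublets were scored with Scrublet and kept, and the 5% with the highest score in each library were left out as an alternative. Sums per class and library of at least 10 cells were tested with edgeR 4.0.16 (filterByExpr, TMM, library block), which was checked on simulated counts. DESeq2 1.42.0 was an alternative. Intervals are exact 95% Poisson or binomial and cover counting error only. All 6 members are named. Of the iron list, at most the 4 genes past the test with the largest change and at least 1 UMI per 10000 are given values, and for likeness the 3 closest genes (pseudocount 0.1, minimum level 0.5). Others were named as the members of small counts. The members and lists were chosen with earlier results of these data known. Scaling by total UMIs and leaving out days 0 and 12 were chosen after seeing the data. Each day is 1 mouse.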

Additional observations from a re-analysis of the deposited data

How the results depend on the processing

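With 1 mouse per day, differences between mice cannot be separated from days, and 66 macrophage-like cells limit all of that class's values. Genes past the test between macrophage-like and monocyte-like cells numbered 1427, but 914 with the 2 classes fitted alone and 784 to 1359 with 1 library left out (784 without day 3, 819 without day 6 and 906 without day 9). Between erythroid-like and GMP-like cells 1071 passed, but 269 with the 2 classes alone, 2164 by total UMIs, 646 with days 3, 6 and 9 only and 647 to 1045 with 1 library left out (647 without day 9), and members past the test numbered 5 with DESeq2 and 0 with the 2 classes alone. Between monocyte-like and neutrophil-like cells 3 members passed by totals, where *Ftl1* (0.60), *Hmox1* (1.18) and *Slc11a1* (0.22) took the opposite sign. *Hmox1* passed there as lower at resolution 1.0 (-0.41), with days 3, 6 and 9 only (-0.25), without day 0 (-0.28) and without day 3 (-0.25). *Tfrc* in macrophage-like cells did not pass with the 2 classes alone (adjusted p 0.0785), the mitochondrial limit (0.437), doublets left out (0.186) or resolution 1.0 (0.105). *Slc40a1* in pro/pre-B-like cells did not pass with doublets left out (0.119). Apart from the scalings and alternatives named, the cause of these changes was not tested. The fit without the library block changed no member's call, and both GMP-like comparisons with myeloid classes kept 6 of 6 members in all 15 alternatives. Monocyte-like day ratios past 1.5-fold numbered 5, but 1 on thinned cells and 2 by the mean over cells. Neutrophil-like ones numbered 3, but 5 on thinned cells, 5 by the mean over cells and 0 with TMM. The log2 ratio of *Slc40a1* in monocyte-like cells on day 6 was -1.69 with free RNA subtracted. Macrophage-like levels per 10000 moved beyond 1 SD with free RNA subtracted (*Fth1* 138, *Ftl1* 137, *Hmox1* 7.33, *Slc11a1* 2.18), by the mean over cells (*Ftl1* 158, *Slc40a1* 1.81, *Hmox1* 7.14) and with doublets left out (*Fth1* 141, *Ftl1* 134, *Hmox1* 6.94). Of the single-gene class values under the alternatives, 518 kept their call, 8 gained and 9 lost it and 3 reversed, and of the day values 255 stayed inside their counting interval, 94 moved and 1 reversed.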

Other observations

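*Ftl1* was lowest on day 12 in 9 of 9 classes with 5 libraries. Of 336 genes with a level of at least 1 in every sum, 21 (6.25%) were lowest on day 12 in all of these classes, against 4 for day 0. The pattern was chosen after the values were seen, and it is 1 mouse. The copy *Gm10116* was lowest on day 12 in 3 of 9 classes, and *Gm10116* UMIs per 100 *Ftl1* UMIs ran from 8.51 to 13.1 on day 12 against 5.01 to 9.43 on the earlier days, with day 12 highest in 8 of 9 classes. How reads were assigned between the gene and its copy was not tested.

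Among cells left unnamed, a cluster of 211 cells led by *Apoe* and *Ace* measured 0.192 to 0.340 UMIs of *Slc40a1* per 10000 over the 5 libraries, and a monocyte-like cluster of 106 cells led by *Clec4a3* measured 0.230 to 0.388. The monocyte-like class as a whole measured 0.0339 to 0.0736. Both counts are small, at 27 and 31 UMIs. The cluster of 106 cells had a median of 8860 UMIs per cell, against 6079 in the monocyte-like cluster of 743 cells also led by *Clec4a3*. The part of doublets in its *Slc40a1* level was not tested.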
